A study of Mus musculus with 148 samples.

Results

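NK Ncr1 cells were the larger of the 2 natural killer (NK) populations that were labeled in a single-cell atlas of mouse lungs and breast tumors. They were taken as every well that carried the label NK Ncr1 in the table of annotated cells, whatever its expression. Of 23425 annotated immune cells in 27 populations, 2312 carried the label (9.87%), and 198 carried the label of the other NK population, NK Xcl1. NK cells are innate lymphocytes that kill stressed, infected or transformed cells without a rearranged antigen receptor. Activating receptors such as NKp46 (Ncr1) and inhibitory receptors of the Ly49 and NKG2A families set their threshold, and killing is carried out by perforin and granzymes from cytotoxic granules. Circulating NK cells are abundant in the lung vasculature and are known to limit blood-borne metastasis in mice, while tumor tissue often also holds less cytotoxic, tissue-resident innate lymphocytes.

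The atlas measured 3′ mRNA in sorted single cells in 384-well plates, as counts of unique molecular identifiers (UMIs, one per captured mRNA molecule). EO771 mouse breast cancer cells expressing tdTomato were placed in the mammary gland of female PA-GFP mice, C57BL/6 animals whose cells carry a photoactivatable GFP, at an age of 8 weeks. The primary tumor was removed 3 weeks later where metastasis was followed, and the lungs were then imaged by CT every week. The 8 tissue statuses were control (lungs of PA-GFP mice without tumor, 3 mice; the study's methods give females of 8 to 10 weeks for mice in general), Pre-MET (lungs of mice that still bore the primary tumor, 3 mice), primary tumor (4 mice), relapse-free (lungs of operated mice without metastases, 6 mice), and 4 statuses of operated mice with lung metastases. These were distal normal (lung tissue away from metastases, 14 mice), MET (tissue that contained metastases, 13 mice), MET core (13 mice) and MET invasive margin (7 mice), the last 2 isolated by photoactivation of the chosen region. All mice with tumor thus received the same cell line, and the PA-GFP transgene was shared by all groups.

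The NK Ncr1 cells came from 63 samples (1 mouse and 1 status each), 27 mice and 12 sequencing batches, and held 3190989 UMIs with a median of 986.5 per cell (range 500 to 53711). No well occurred on more than 1 plate. For expression, the cells of a sample were summed, and the 40 sums of 10 or more cells were compared (2184 cells, 7924 to 546809 UMIs per sum, median 35734.5). They comprised 3 control, 6 relapse-free, 3 Pre-MET, 7 distal normal, 8 MET, 9 MET core and 4 MET invasive margin sums. The 4 primary tumors held 17 NK Ncr1 cells in all and entered no expression test. The sort differed between statuses: control, Pre-MET, primary tumor, distal normal and MET cells were CD31-CD45+, and margin cells and 224 of the 310 core cells were CD31- and GFP+. Of the 853 relapse-free cells, 420 were CD31-CD45+ without selection on GFP and 134 came from GFP+ plates. The rest were sorted as GFP-negative CD31-CD45+ cells.

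The label fitted its markers. Ncr1, which encodes the activating receptor NKp46 (mm10, chromosome 7, 4337724 to 4345164, plus strand), was detected in 40 of 40 sums at a mean of 1101 counts per 1000000 UMIs (CPM; range 516 to 2231). CPM count 3′ molecules and were not divided by gene length. Gzma, the granzyme A gene (chromosome 13, 113093825 to 113100981, minus strand), stood at 13542 CPM (9412 to 22106). Klrb1c, which encodes NK1.1 (chromosome 6, 128778485 to 128789215, minus strand), stood at 1161 CPM (373 to 3709). Eomes, a transcription factor of mature NK cells and the scarcest of the 8 markers, had UMIs in 35 of 40 sums (mean 229 CPM). Among all labels of the atlas, the pooled CPM of Ncr1, Gzma, Klrb1c, Klre1, Eomes, Nkg7 and Prf1 was highest in NK Ncr1 cells, and that of Klrk1 (NKG2D) was second to NK Xcl1 cells (1306 against 1458 CPM). Since the labels came from clustering of these cells, these ranks describe the label and were not tested.

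The most abundant transcript other than ribosomal and mitochondrial genes was Ccl5, a chemokine that recruits T cells and dendritic cells, at 29549 CPM (17592 to 54912). The structural and housekeeping transcripts Tmsb4x (25028 CPM), Malat1 (17424 CPM) and Actb (7515 CPM) followed among the 20 leading genes, together with Nkg7, a granule protein (9500 CPM), and B2m, the light chain of MHC class I (6510 CPM). The adaptors through which activating receptors signal were also among them, with Tyrobp (DAP12) at 4420 CPM and Fcer1g (FcRgamma) at 3737 CPM. Other than the markers, the leading receptors were Il2rb, the beta chain shared by the IL2 and IL15 receptors, at 1091 CPM, and Klrd1 (CD94) at 974 CPM. The leading transcription factors were Id2 (1657 CPM), which NK cells need to develop, and Irf8 (1013 CPM). Ifng, the gene of the cytokine for which NK cells are best known, had no UMI in any NK Ncr1 cell and 6 UMIs in the whole atlas. Gapdh, a gene that every cell uses, had 3 UMIs in NK Ncr1 cells and 166 in the atlas, so a gene listed at 0 in this table is not thereby absent from the cells.

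At the level of single cells, each cell was thinned to 500 UMIs, which left out none, and compared with B cells, which lack these genes (median 986.5 UMIs per NK Ncr1 cell and 1001 per B cell). Ccl5 was found in 99.0% of NK Ncr1 cells (95% exact binomial interval 98.5 to 99.4%, counting error only) and in 11.4% of B cells. Gzma was found in 91.7% of NK Ncr1 cells (90.5 to 92.8%) and in 3.41% of B cells. Ncr1 was found in 27.6% (25.7 to 29.4%) and Klrb1c in 32.7% (30.8 to 34.7%), against 0.474% and 0.284% of B cells, so that at this depth most single cells of the label carried no Ncr1 UMI. Before thinning, the shares in NK Ncr1 cells were 99.9% for Ccl5, 95.03% for Gzma, 41.0% for Ncr1 and 47.0% for Klrb1c. Of the 8 markers, 13 thinned cells (0.562%) carried none.

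**Figure D1:**
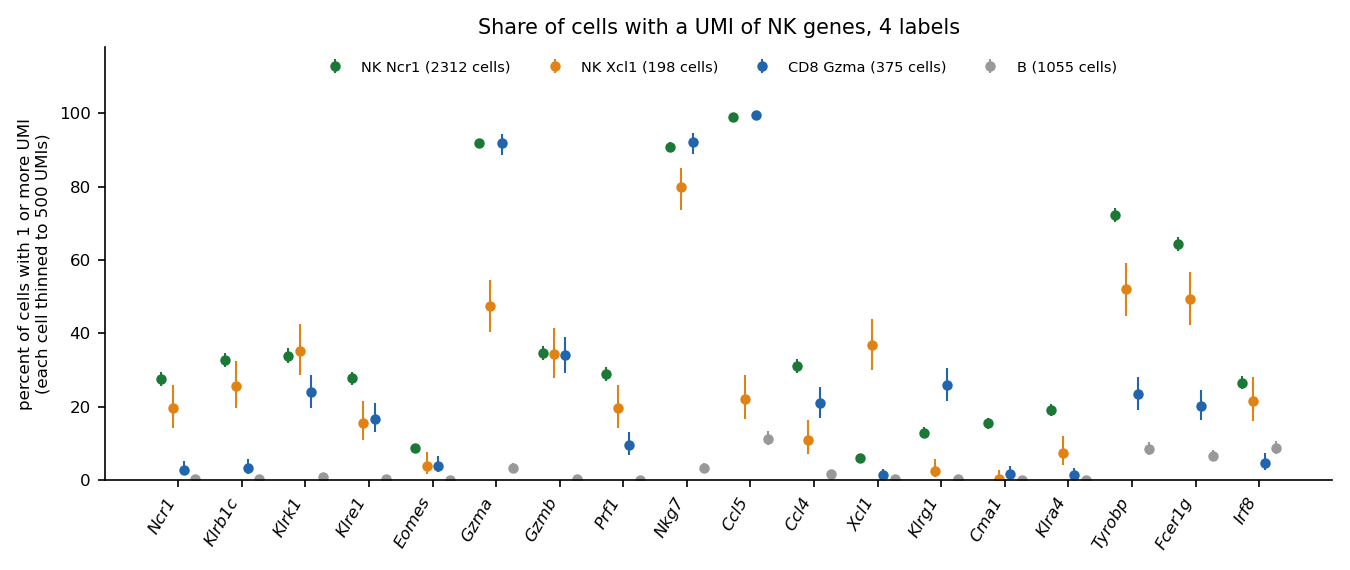
Percent of cells with 1 or more UMI of each gene (vertical axis) after each cell was thinned to 500 UMIs, for NK Ncr1, NK Xcl1, CD8 Gzma and B cells; bars are 95% exact binomial intervals. Gzma was found in 91.7% of NK Ncr1 and CD8 Gzma cells, while Cma1 was found in 15.5% of NK Ncr1 cells and at most 1.87% of the others.

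Neighboring populations showed where the profile of NK Ncr1 cells differed. Beside NK Xcl1 cells of the same 5 samples (1 relapse-free lung and 4 cores with 10 or more cells of each), Ccl5 stood at 29789 ± 14710 CPM (SD, n = 5) against 854 ± 424 CPM and was higher in NK Ncr1 cells in 5 of 5 samples. Klrg1, an inhibitory receptor of mature NK cells, had means of 378 against 30.4 CPM, Itgam (CD11b), an integrin of mature NK cells, 141 against 10.8 CPM, and Itga2 (CD49b) 200.4 against 17.0 CPM, each higher in NK Ncr1 cells in 5 of 5 samples. For these 3, NK Xcl1 cells of some samples were at 0 (Itgam and Itga2 had a median of 0), and where a sample was at 0 the means are given in place of a fold. The chemokine gene Xcl1 was 8.88-fold higher in NK Xcl1 cells. Ltb (lymphotoxin beta) had means of 424 CPM in NK Xcl1 and 20.7 CPM in NK Ncr1 cells and Gzmc (granzyme C) 633 and 35.1 CPM (median 6.03 CPM in NK Ncr1 cells), and none of the 3 was higher in NK Ncr1 cells in any sample. Of the other members of this list of 10 contrast genes, Cd7 was higher in NK Ncr1 cells by mean (327 against 253 CPM) and in 2 of 5 samples, and Emb, Tcf7, Cd27, Il7r, Cxcr6 and Itga1 were higher by mean in NK Xcl1 cells and higher in NK Ncr1 cells in 1 or 2 of 5 samples. Among the markers, Eomes stood at 179 against 209 CPM and Klrb1c at 1213 against 721 CPM, each higher in NK Ncr1 cells in 3 of 5 samples. Cma1, a chymase, stood at 456 CPM in NK Ncr1 cells and was at 0 in the NK Xcl1 cells of all 5 samples.

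Beside CD8 Gzma T cells of the same 8 samples, the granule genes differed among themselves. These were control mice 1, 2 and 3, relapse-free mice 7 and 11, distal normal mouse 36, and the core and margin of mouse 17. The last 2 samples thus came from the same mouse. Gzma stood at 13328 against 11604 CPM and Nkg7 was 1.09-fold higher in NK Ncr1 cells, each higher there in 7 of 8 samples. By mean Gzmb (granzyme B) was 1.35-fold higher in NK Ncr1 cells, but it was higher there in 5 of 8 samples. Its medians were 1294 CPM in NK Ncr1 and 1225 CPM in CD8 Gzma cells, and 1 sample stood at 4012 CPM in NK Ncr1 cells. Prf1 was 3.76-fold higher in NK Ncr1 cells, in 8 of 8 samples. Gzmk (granzyme K) had means of 365 CPM in CD8 Gzma and 44.4 CPM in NK Ncr1 cells and was higher in CD8 Gzma cells in 8 of 8 samples. Of the NK receptors, Klrb1c was 9.89-fold higher in NK Ncr1 cells, Ncr1 had means of 1083 against 232 CPM and Klra4 (Ly49D) of 775 against 39.3 CPM (median 0 in CD8 Gzma cells), each higher in NK Ncr1 cells in 8 of 8 samples. Klrk1 was 1.89-fold higher in NK Ncr1 cells (7 of 8 samples), and Klre1 had means of 1033 against 514 CPM (higher in 6 of 8). Klrg1 was 1.78-fold higher in CD8 Gzma cells and higher in NK Ncr1 cells in 2 of 8 samples. Of the T-cell genes, Cd8b1 was 35.3-fold higher in CD8 Gzma cells, and Cd3g and Cd8a had means of 1351 and 1043 CPM there against 77.8 and 38.9 CPM in NK Ncr1 cells, each higher in CD8 Gzma cells in 8 of 8 samples. The labels were made from the expression of these cells, so these differences were not tested.

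By mean, NK Ncr1 cells made up the largest share of immune cells in control lungs and the smallest in primary tumors. In the 3 control lungs they were 15.5, 16.4 and 19.4% of immune cells (17.1 ± 2.05%, SD, n = 3), and in the 6 relapse-free lungs 9.46 to 19.8% (median 13.7%). In the 3 Pre-MET lungs they were 2.06, 4.65 and 6.84% (4.51 ± 2.39%, n = 3), 3.79-fold below control with no overlap. In the 4 primary tumors they were 0.339, 0.896, 1.24 and 1.53% (1.00 ± 0.511%, n = 4), below every control, relapse-free and Pre-MET lung. A percentage of sorted immune cells also moves when other immune cells become more or less numerous, and it gives no number of cells in the tissue.

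The statuses of metastatic lungs overlapped widely. Distal normal tissue held 1.07 to 23.4% (median 8.26%, n = 14), MET tissue 1.36 to 14.4% (median 5.41%, n = 13), the MET core 0.633 to 32.5% (median 8.20%, n = 13) and the invasive margin 2.09 to 17.4% (median 8.20%, n = 7). Of 13 mice with both, 5 had a higher share in MET than in distal normal tissue and 6 a higher share in the core than in distal normal tissue. Of 6 mice with both, 4 had a higher share in the margin than in the core.

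**Figure D2:**
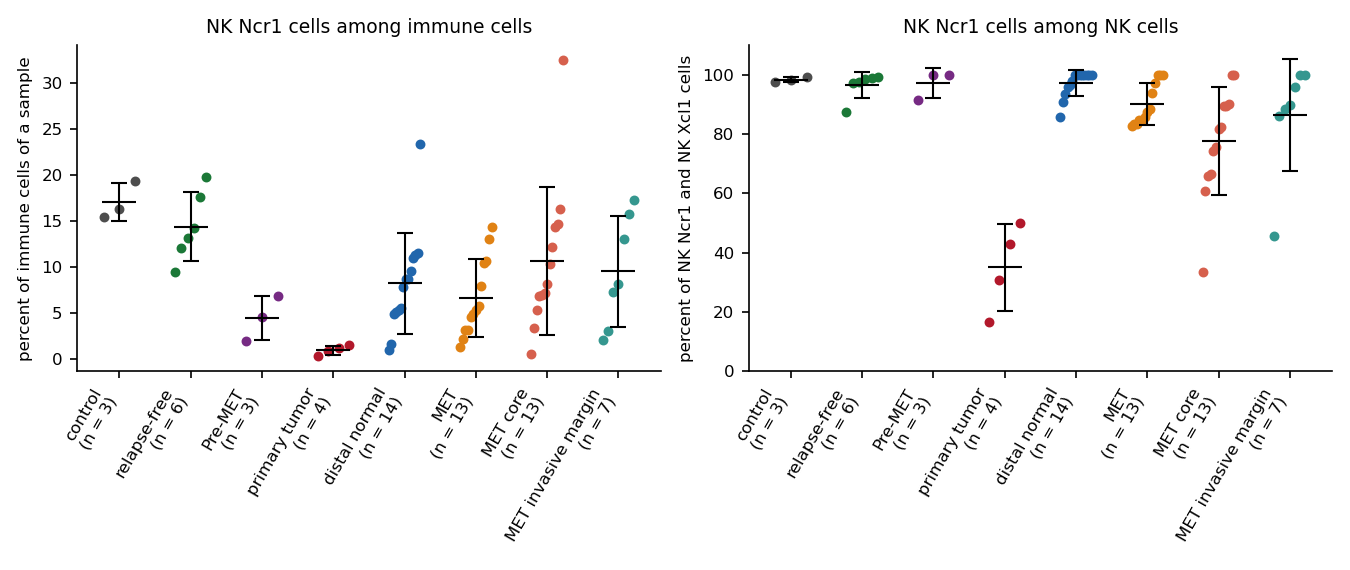
NK Ncr1 cells as a percent of the immune cells of a sample (left) and of all NK cells, that is NK Ncr1 plus NK Xcl1 (right), by tissue status; points are samples and bars are the mean and SD. The 3 Pre-MET lungs lay between 2.06 and 6.84%, below the 3 control lungs at 15.5 to 19.4%, and the 4 primary tumors held 16.7 to 50.0% NK Ncr1 cells among NK cells.

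None of 8 comparisons of these percentages passed after Benjamini-Hochberg adjustment over the 8. The 3 Pre-MET lungs against the 3 control lungs gave p = 0.1 in a two-sided exact permutation test, the smallest this design can give (adjusted p = 0.2). Distal normal minus control was -8.80 percentage points (exact permutation test, p = 0.0176, adjusted p = 0.0829) and distal normal minus relapse-free -6.12 points (exact permutation test, p = 0.0230, adjusted p = 0.0829). The core was 9.70 points above primary tumors (exact permutation test, p = 0.0311, adjusted p = 0.0829), and the sorts of these 2 statuses differed. Relapse-free against control gave p = 0.298 and margin against core p = 0.762 (exact permutation tests). MET against distal normal gave p = 0.427 and core against distal normal p = 0.387 (permutation tests). These tests took the tissues of a mouse as separate samples. Within mice, MET minus distal normal was -1.78 points (13 mice, exact sign-flip permutation test, p = 0.0813), core minus distal normal 2.18 points (13 mice, exact sign-flip permutation test, p = 0.473) and margin minus core -2.17 points (6 mice, exact sign-flip permutation test, p = 0.875).

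Sequencing batches, named SB and a number in the labels, did not cover all groups. The 3 control lungs were the only samples of batch SB102, and the 3 Pre-MET lungs were sequenced in SB99 and SB111 together with the relapse-free lungs of mice 6 and 7, so for comparisons with control batch and tissue cannot be told apart. For the values within batches, a sample was put to the batch of most of its immune cells. Distal normal minus relapse-free was -8.68 points in SB112, 0.584 points in SB118 and -7.18 points in SB128, with 1 relapse-free lung in each. MET minus distal normal was -1.86, -1.46 and -0.983 points in the 3 batches that held both. Core minus distal normal was 4.80 points in SB112, -1.04 points in SB118, 12.7 points in SB124 and -2.26 points in SB128. Margin minus core was 2.66 points in SB112, -0.0762 points in SB118, -10.4 points in SB124 and 4.44 points in SB128. The core was 3.42 points above the single primary tumor of SB128.

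Within the NK compartment, NK Ncr1 cells were nearly all NK cells of lungs without metastases and a smaller share in tumor tissue. They were 98.3 ± 0.881% of NK cells in control (n = 3), 96.4 ± 4.45% in relapse-free (n = 6), 97.1 ± 5.02% in Pre-MET (n = 3) and 97.2 ± 4.40% in distal normal tissue (n = 14). They were 90.1 ± 7.03% in MET (n = 13), 77.6 ± 18.3% in the core (n = 13) and 86.5 ± 18.9% in the margin (n = 7). In the primary tumors of mice 8, 9, 10 and 38 they were 16.7, 42.9, 50.0 and 30.8%, while the Pre-MET lungs of mice 8, 9 and 10 gave 91.3, 100.0 and 100.0%. These shares were given as a description, with no test, and some rest on few cells: the 4 primary tumors held 49 NK cells in all.

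The few NK Ncr1 cells of primary tumors carried the markers of the label. Pooled over 17 cells and 52830 UMIs (1, 3, 5 and 8 cells per tumor), Gzma stood at 12701 CPM (exact Poisson interval 11758 to 13700, counting error only), Ncr1 at 1022 CPM (768 to 1334), Klrb1c at 1628 CPM (1302 to 2010) and Prf1, the perforin gene, at 1704 CPM (1370 to 2094), each inside the range of the 40 lung sums. Ccl5 stood at 14348 CPM (13345 to 15407), below the lowest lung sum, 17592 CPM. Xcl1 stood at 379 CPM, all of it from 1 of the 17 cells. A single cell of mouse 10 held 11751 of the 52830 UMIs, 17 of the 54 Ncr1 UMIs and all 20 Xcl1 UMIs. The tumors of mice 9, 10 and 38 were sequenced in SB132, which held no lung sum. Tissue and batch thus cannot be told apart in these values. With 1 to 8 cells per tumor they also have no replicate check.

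No marker of the label passed a test between lung statuses. In the order control, relapse-free, Pre-MET, distal normal, MET, core and margin, mean Ncr1 was 1224, 1008, 1143, 949, 1253, 1069 and 1150 CPM. The 3 control sums stood at 1188, 1215 and 1270 CPM, the 3 Pre-MET sums at 547, 1133 and 1748 CPM and the 4 margin sums at 964, 1077, 1274 and 1285 CPM, so all groups overlapped with Pre-MET. Mean Gzma ranged from 12321 ± 2165 CPM in the margin (n = 4) to 14789 ± 3233 CPM in MET (n = 8). Mean Klrb1c ranged from 938 ± 333 CPM in the core (n = 9) to 1928 ± 1544 CPM in Pre-MET (n = 3), where a single sum of 10 cells stood at 3709 CPM and the other 2 at 964 and 1112 CPM. In none of 7 comparisons did any of the 8 markers pass edgeR's quasi-likelihood test at an adjusted p below 0.05, and the log2 difference of Gzma lay between -0.23 ± 0.20 (SE; core against distal normal) and 0.14 ± 0.23 (distal normal against relapse-free).

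**Figure D3:**
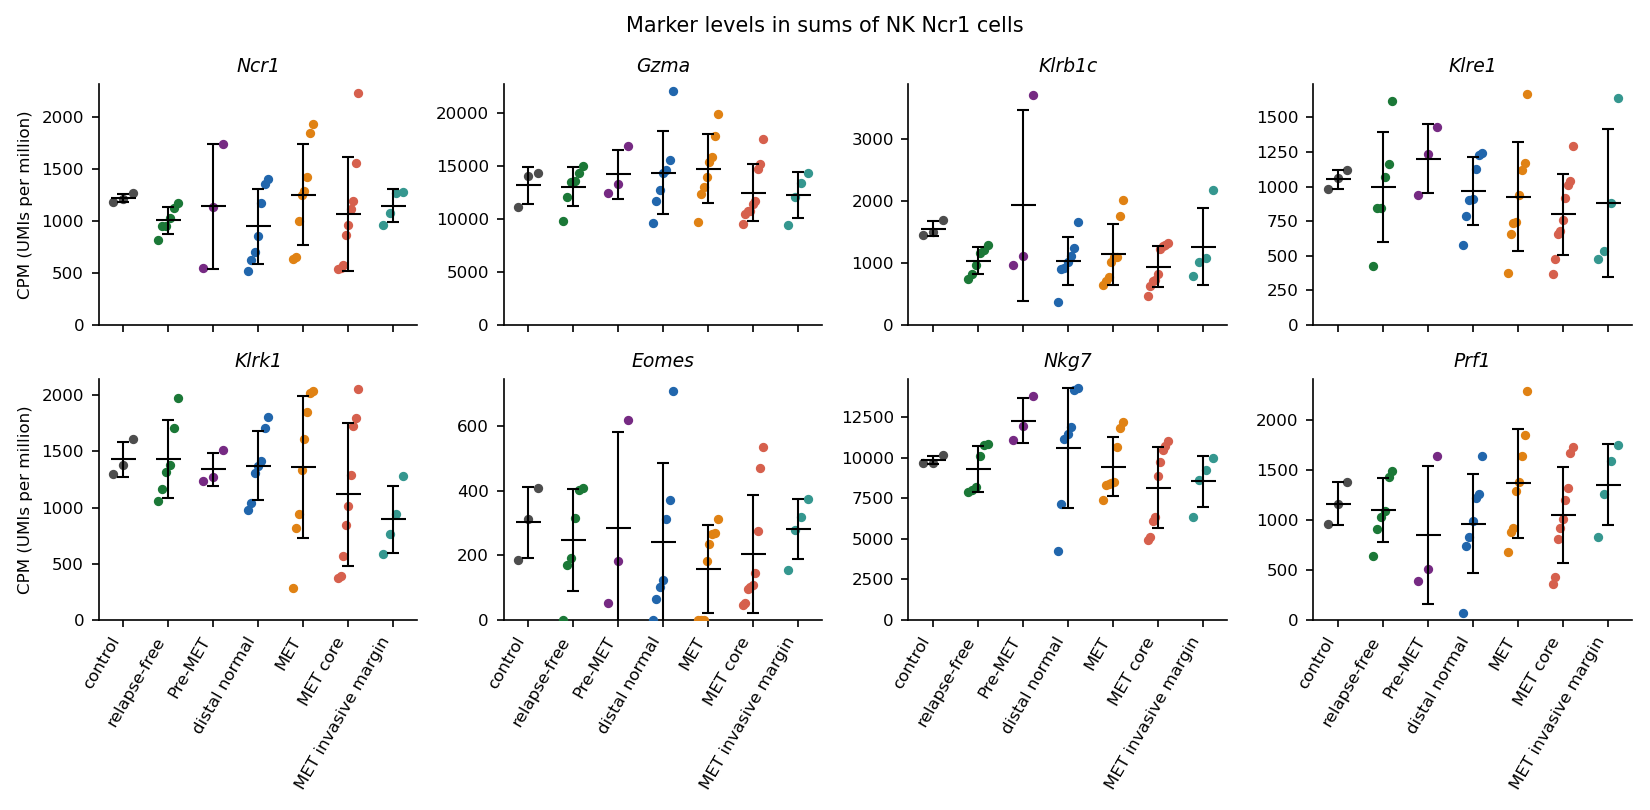
CPM of the 8 NK markers in the 40 sums of NK Ncr1 cells (vertical axes, linear, each gene on its own scale), by lung status; points are sums, bars the mean and SD, and error bars that would reach below 0 end at 0. Ncr1 lay between 516 and 2231 CPM and Gzma between 9412 and 22106 CPM over all sums.

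The question whether NK cells of a lung with a primary tumor elsewhere differ from those of a control lung was put to 1764 genes, after a filter on low counts. In Pre-MET against control 0 genes passed edgeR's test (0% of the genes tested) and 0 passed DESeq2, with 142 and 149 genes below an unadjusted p of 0.05. The 3 Pre-MET sums held 9706, 18879 and 38401 UMIs and the 3 control sums at least 123752 each. Several of the smallest p-values belonged to genes with a status at 0. Smg6, a factor of nonsense-mediated decay, was at 0 in control and at 0 to 1442 CPM in Pre-MET (mean 481 CPM), where a single sum held all of its UMIs. Tecpr1, an autophagy gene, was at 178 to 272 CPM in control and 0 in all Pre-MET sums, which is at least 4.95-fold lower when 3 UMIs are granted to the Pre-MET sums together. Srp19, of the signal recognition particle, had 598 to 935 CPM in control and 0 to 318 CPM in Pre-MET (log2 difference -2.42 ± 0.70, adjusted p = 0.363, edgeR). With a sum left out this difference lay between -3.36 and -2.13. The ranges of these 2 statuses did not overlap for Tecpr1 and Srp19, as for 19.2% of all genes tested.

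No list held a called gene in Pre-MET against control. The type I interferon list, with 11 of 46 genes tested, had 0 called, a median log2 difference of -0.91 (-0.81 with a gene at 0 in every Pre-MET sum set to its bound) and 10 of 11 genes below 0, beside a median of -0.19 over all genes. Parp14 of that list stood at -3.62 ± 1.46 and Hsp90ab1, a chaperone and the most abundant of the immediate early and heat shock list, at -1.33 ± 0.49 (adjusted p = 0.517 for both, edgeR). The cytotoxic granule list had a median of -0.24 and the transcription factor list -0.44, with 0 of 12 and 0 of 14 genes called.

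Relapse-free against control, which sets lungs of operated mice without relapse beside healthy ones, gave 0 called genes (0%), 46 at an unadjusted p below 0.05, and 0 with DESeq2 (52 unadjusted). Gm12319, a long noncoding RNA gene, had the smallest p, with 427 against 38.1 CPM (log2 difference 3.32 ± 0.75, adjusted p = 0.0600, edgeR; 4.20 without control mouse 2 and 2.69 without relapse-free mouse 35). Nfkbia, which encodes the NF-kappaB inhibitor IkappaBalpha, stood at 264 to 935 CPM in relapse-free and 66.8 to 145 CPM in control, without overlap (2.31 ± 0.65, adjusted p = 0.321). Ccl4, a chemokine gene of activated NK cells, gave 1.498 ± 0.52 (adjusted p = 0.734). The ranges of 3.91% of all genes tested did not overlap in this comparison.

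Distal normal tissue against control was the comparison in which genes passed, 11 of 1764 (0.624%; 10 higher, 0.567%, and 1 lower, 0.0567%), and DESeq2 also called 11. The split by direction depended on the fit, with 11 higher and 12 lower when these 2 statuses were fitted alone and 4 higher and 5 lower with a weaker filter. Nfkbia rose, from 66.8, 136 and 145 CPM in control to 248 (lowest), 604 (median) and 1804 CPM (highest) in distal normal tissue (log2 difference 2.65 ± 0.66, adjusted p = 0.0401, edgeR). It was the only called gene on any list, 1 of 23 tested genes of the immediate early and heat shock list, whose median was 0.64 beside 0.01 over all genes. Myl6, a myosin light chain gene, fell, from 1188, 1423 and 1430 CPM in control to 45.2, 248 and 403 CPM (lowest, median and highest) in distal normal tissue (-2.71 ± 0.58, adjusted p = 0.00685). The groups did not overlap for either gene, as for 4.14% of all genes tested. The count of called genes was 2, 3 and 2 without control mice 1, 2 and 3. Nfkbia lost its call in 7 of 10 fits that left out 1 sum, without control mouse 1, 2 or 3 and without distal normal mouse 25, 28, 30 or 36 (adjusted p = 0.0511 to 0.486, edgeR).

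The other 9 called genes were higher in distal normal tissue, and of all 11 only Myl6 and Gm12319 kept their call in each of the 10 fits that left out a sum. Gm12319 rose from 38.1 to 769 CPM (4.33 ± 0.77, adjusted p = 0.000581), Cep85, a centrosomal gene, from 36.0 to 304 CPM (3.21 ± 0.73, adjusted p = 0.0144), and Myl6b, another myosin light chain gene, from 12.8 to 167 CPM (3.53 ± 0.88, adjusted p = 0.0401). The log2 difference of Gm12319 was 5.15 without control mouse 2, and that of Cep85 2.59 without control mouse 3. Snord15a, a small nucleolar RNA, and Mir142hg, the host gene of miR-142, had means of 2.48 and 12.6 CPM in control and 116 and 237 CPM in distal normal tissue. For Mir142hg distal normal mouse 36 alone stood at 818 CPM. With a sum left out the log2 difference lay between 4.44 and 6.15 for Snord15a and between 3.18 and 5.60 for Mir142hg. The pseudogenes Gm6274 and Gm5637 rose by 2.38 ± 0.61 and 1.89 ± 0.50 on the log2 scale. Gm17087 was at 0 in all control sums and at 129 CPM in distal normal tissue, at least 16.5-fold higher when 3 UMIs are granted to the control sums together.

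Where these genes lie may bear on how their reads could be assigned. In GENCODE vM21 on mm10, 5 of the 11 overlapped another gene and 8 overlapped or lay within 1000 bases of another gene. The same count was not made for all 1764 genes, so these counts have no background share. The study counted reads on a UCSC reference instead and joined same-strand genes with shared exon positions into 1 entry. Myl6 (chromosome 10, 128490860 to 128494145) and Myl6b (chromosome 10, 128494157 to 128498685) are on the same strand with 11 bases between them. Gm12319 (chromosome 11, 70654741 to 70656493) lies 96 bases from Pfn1, the profilin gene, on the same strand. Snord15a lies within the ribosomal gene Rps3 on the same strand. Counts of these genes are uncertain where reads could be assigned to their neighbor.

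**Figure D4:**
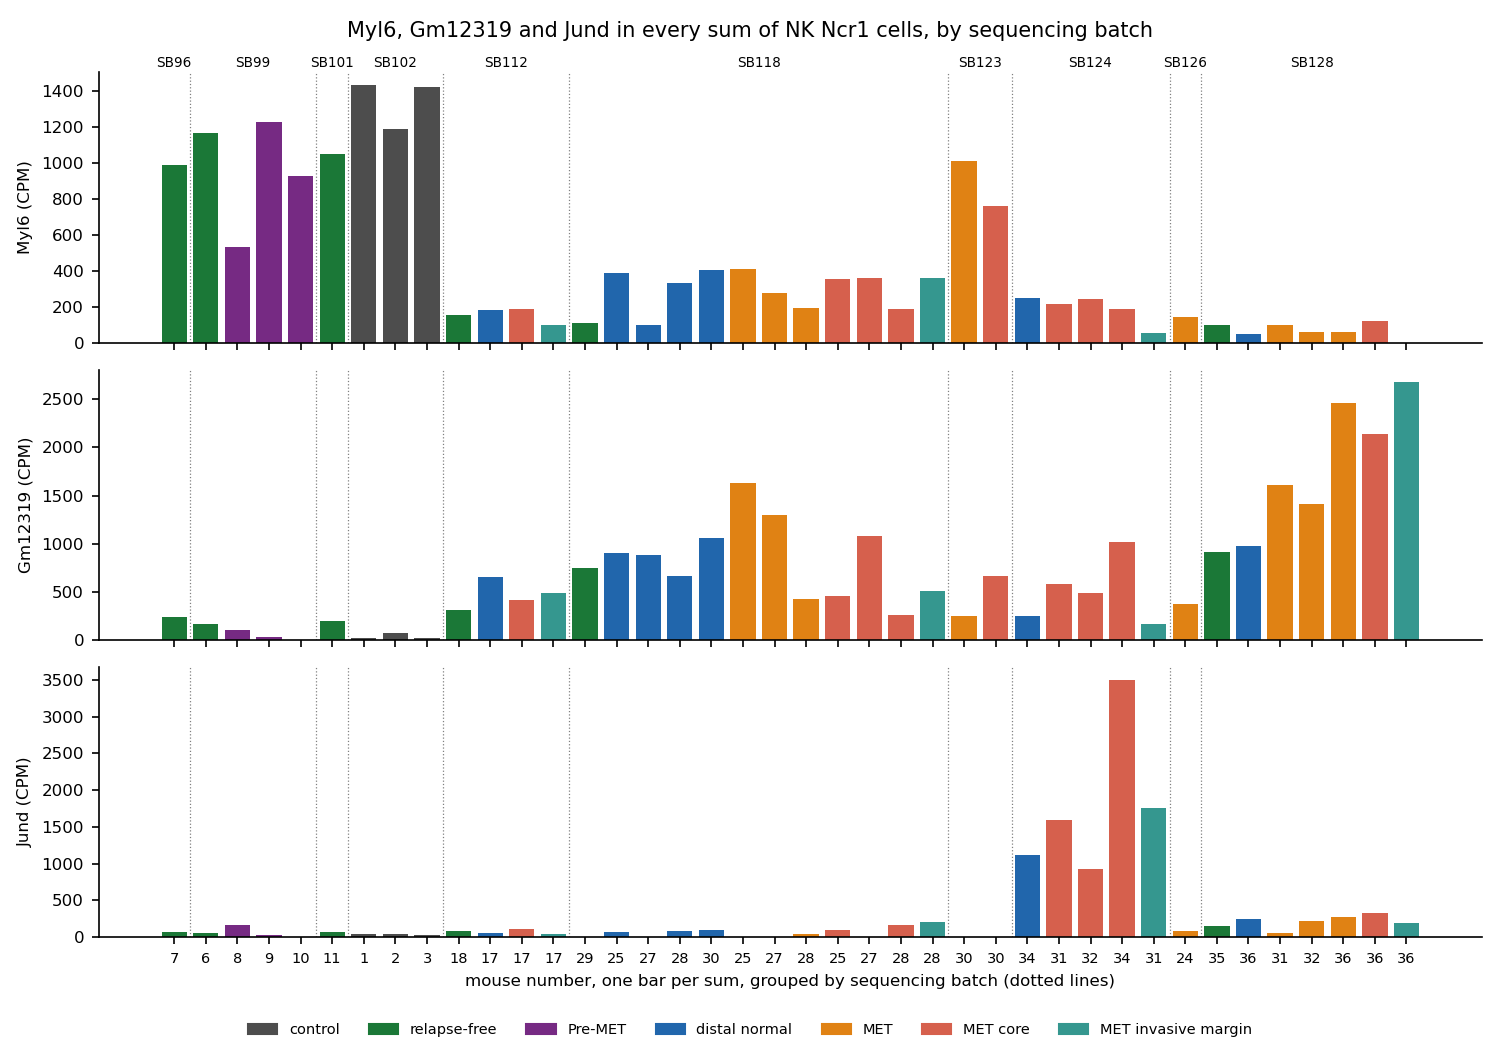
CPM of Myl6, Gm12319 and Jund in each of the 40 sums of NK Ncr1 cells (bars, linear axes from 0), ordered by the sequencing batch of most of their cells and colored by tissue status. Myl6 was high in all sums of SB96 to SB102 whatever their status, and Jund stood at 923 CPM or more in the 5 sums of SB124 and at 322 CPM or less in all others.

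For 7 of the 11 genes the relapse-free sums of lower-numbered and higher-numbered batches did not overlap, beside 17.0% of all genes tested. By the batch of most of their cells, the 9 sums of SB96 to SB102 were the 3 control, the 3 Pre-MET and 3 of the 6 relapse-free sums, and the other 31 sums belonged to SB112 and higher; 4 of the 9 also held 95 cells of SB111 in all. Relapse-free lungs were in both sets: Myl6 stood at 984 to 1164 CPM in mice 6, 7 and 11 and at 97.2 to 153 CPM in mice 18, 29 and 35, and Gm12319 at 164 to 232 CPM against 307 to 915 CPM. Nfkbia stood at 264 to 497 CPM against 746 to 935 CPM in the same lungs. In CD4 Lef1 T cells of the same 6 lungs Myl6 stood at 528 to 545 CPM against 26.9 to 125 CPM, while Nfkbia overlapped (612 to 780 against 573 to 1291 CPM). In B cells of these lungs Myl6 and Nfkbia did not overlap between the batch sets, and Gm12319 did. In mouse 30, distal normal tissue, sequenced in SB118, gave 403 CPM Myl6, while MET and core, sequenced in SB123, gave 1010 and 757 CPM. No batch term could be fitted for comparisons with control, so for these 11 genes distal normal tissue and batch cannot be told apart.

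An F test for any difference between the 7 lung statuses called 27 genes (1.53% of 1764), led by Gm12319 (adjusted p = 1.25e-05) and Myl6 (adjusted p = 0.000133). The 40 sums came from 22 mice, so sums of a mouse entered as separate values. With limma voom, 82 genes were called with the mouse as a block and 75 without it, each fit with 23 of the 27 among its calls. Among the 27 sums of 9 mice with 2 or more metastatic-lung statuses, edgeR's F test over the 4 statuses called 0 genes with the mouse as a term and 0 without it (38 and 35 at an unadjusted p below 0.05). They comprised 9 gene models with a Gm name, 6 ribosomal protein genes or their pseudogenes, 1 mitochondrial gene and 11 others. For 19 of the 27 the relapse-free sums of the lower-numbered and higher-numbered batches did not overlap, which was so for 299 of all 1764 genes (17.0%). The same held for 18 of the 27 in CD4 Lef1 T cells of these lungs (17.7% of all 1764 genes), 16 of them in both populations, and for 14 of the 27 in their B cells (13.6% of all 1764 genes). Among the 31 sums of SB112 and higher alone, the F test called 0 of 877 genes, with 13 at an unadjusted p below 0.05 (DESeq2 was not run on this subset). This subset held no control or Pre-MET sum and only part of the relapse-free sums. It could not call a gene that differed only through control or Pre-MET.

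Of the lists, 4 of 23 immediate early and heat shock genes (Jun, Jund, Nfkbia and Hspa5) and 1 of 6 cell cycle genes (Mki67) were among the 27. Jun, which encodes an AP-1 transcription factor subunit, stood at 0 to 16.2 CPM in control, 0 in Pre-MET, 0 to 186 CPM in relapse-free, 0 to 195 CPM in distal normal, 0 to 901 CPM in MET, 0 to 622 CPM in the core and 103, 132, 161 and 425 CPM in the 4 margin sums. Every margin sum was above every control and Pre-MET sum, and the margin sums overlapped those of relapse-free lungs. All control and Pre-MET sums belonged to SB111 or lower and all margin sums to SB112 or higher, so status and batch cannot be told apart here. Jund, another AP-1 subunit, stood at 923 to 3504 CPM in the 5 sums of SB124 (1 distal normal, 3 core and 1 margin) and at 0 to 322 CPM in the other 35. Mki67, a proliferation marker, was at 0 in the 3 control sums, at 0, 273, 321 and 372 CPM in the margin and at 0 to 476 CPM in the core, and 1.12% of all thinned NK Ncr1 cells carried a UMI. Its means were 8.68 CPM in Pre-MET, 45.6 CPM in relapse-free and 61.8 CPM in distal normal sums. In relapse-free mouse 35 a single cell held 39 Mki67 UMIs. Mki67 stood at 0 to 27.4 CPM in the 9 sums of SB96 to SB102 and at 0 to 476 CPM in the other 31. For Mki67, too, control and batch cannot be told apart. Hspa5, the endoplasmic reticulum chaperone BiP, stood at 251 to 368 CPM in control, 0 to 208 CPM in Pre-MET and 381 to 1568 CPM in the core. In relapse-free lungs Hspa5 did not overlap between lower-numbered and higher-numbered batches, in NK Ncr1 cells (180 to 329 against 426 to 473 CPM) or in CD4 Lef1 cells (171 to 203 against 311 to 458 CPM), and overlapped in B cells (40.9 to 741 against 80.4 to 563 CPM).

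Distal normal against relapse-free, which sets tissue away from metastases beside lungs of mice that did not relapse, gave 0 called genes (0%), 59 at an unadjusted p below 0.05, and 0 with DESeq2 (63 unadjusted). Among the smallest p-values were those of Cst7, which encodes cystatin F, an inhibitor of the proteases that activate granzymes (504 against 225 CPM, 1.07 ± 0.41, adjusted p = 0.902), and Mxd1, a partner of Max (346 against 138 CPM, 1.35 ± 0.50, adjusted p = 0.830). Both genes overlapped between the groups, and the ranges of 0.113% of all genes tested did not. The lower side was led by the pseudogenes Gm12328 and Gm1821, at -2.03 ± 0.52 and -1.58 ± 0.47. All distal normal sums belonged to SB112 and higher, but only part of the relapse-free sums did. Within the relapse-free lungs Gm12328 stood at 1948 to 2469 CPM in lower-numbered and 186 to 853 CPM in higher-numbered batches. The same split was 1626 to 1819 against 161 to 376 CPM in CD4 Lef1 cells and 1329 to 1992 against 197 to 408 CPM in B cells.

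MET against distal normal tissue gave 0 called genes (0%), 46 at an unadjusted p below 0.05, and 0 with DESeq2 (60 unadjusted). Psmb9, an interferon-gamma-induced subunit of the immunoproteasome, stood at 0 to 624 CPM in MET (median 393 CPM) and 0 to 249 CPM in distal normal tissue (median 85.9 CPM), with overlap (log2 difference 1.85 ± 0.53, adjusted p = 0.522, edgeR). Psmb8, its partner subunit, gave 0.58 ± 0.29 (adjusted p = 1.00). The interferon-gamma list had a median of 0.31 over 15 tested genes, 11 of them above 0, beside 0.03 over all genes, and none was called. Jun gave 2.21 ± 0.74 (adjusted p = 1.00; 3.71 without distal normal mouse 17 and 1.36 without MET mouse 31), and Nipbl, a cohesin loader, -1.90 ± 0.59 (adjusted p = 0.790).

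The MET core against distal normal tissue, the comparison of NK cells inside metastases with those of the remaining lung, gave 0 called genes (0%), 76 at an unadjusted p below 0.05, and 0 with DESeq2 (99 unadjusted). Sgk1, a stress-induced kinase, had the smallest p: it stood at 0 to 205 CPM in the core (median 52.9 CPM) and 78.1 to 838 CPM in distal normal tissue (median 291 CPM), with overlap (log2 difference -1.81 ± 0.54, adjusted p = 0.974, edgeR). Klrg1 stood at 52.9 to 676 CPM in the core and 124 to 1410 CPM in distal normal tissue (-1.22 ± 0.44), and Cma1 at 382 against 747 CPM (-1.02 ± 0.41). On the other side stood Cd69, an early activation and tissue retention receptor (0 to 646 CPM against 0 to 302 CPM, 1.73 ± 0.58), Ctla2a, a cysteine protease inhibitor (565 against 209 CPM, 1.44 ± 0.48), and Ccl3, a chemokine gene (1.09 ± 0.48). Each of these had an adjusted p of 0.974 (edgeR), and all overlapped between the statuses. With a sum left out the log2 difference of Ctla2a lay between 0.838 and 1.78.

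The lists spanned both directions in the core. Of 13 tested activating receptors 1 was above 0 (median -0.24), and of 12 granule genes 4 were (median -0.33), while 5 of 6 glycolysis and hypoxia genes were above 0 (median 0.67) and the list of TGF-beta-induced and ILC1-like genes had a median of 0.92 with 3 of 5 above 0. The median over all genes was 0.01, and no member of any of these lists was called. Ldha, the lactate dehydrogenase gene and the most abundant of the glycolysis list, stood at 809 ± 270 CPM in the core (n = 9) and 558 ± 169 CPM in distal normal tissue (n = 7). Spp1, osteopontin, from the list of tumor-associated genes, gave 3.24 ± 1.17. The study also names SPP1 among the markers of its regulatory macrophages in metastatic lungs. The list's summed level reached 1523 CPM in the core of mouse 25 and at most 101 CPM in distal normal tissue. Spp1 alone reached 1523 CPM in a sum, while Krt8, Krt18, Krt19, Epcam and Wfdc2 of that list reached at most 50.4 CPM. The part of this signal in the other values was not tested.

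**Figure D5:**
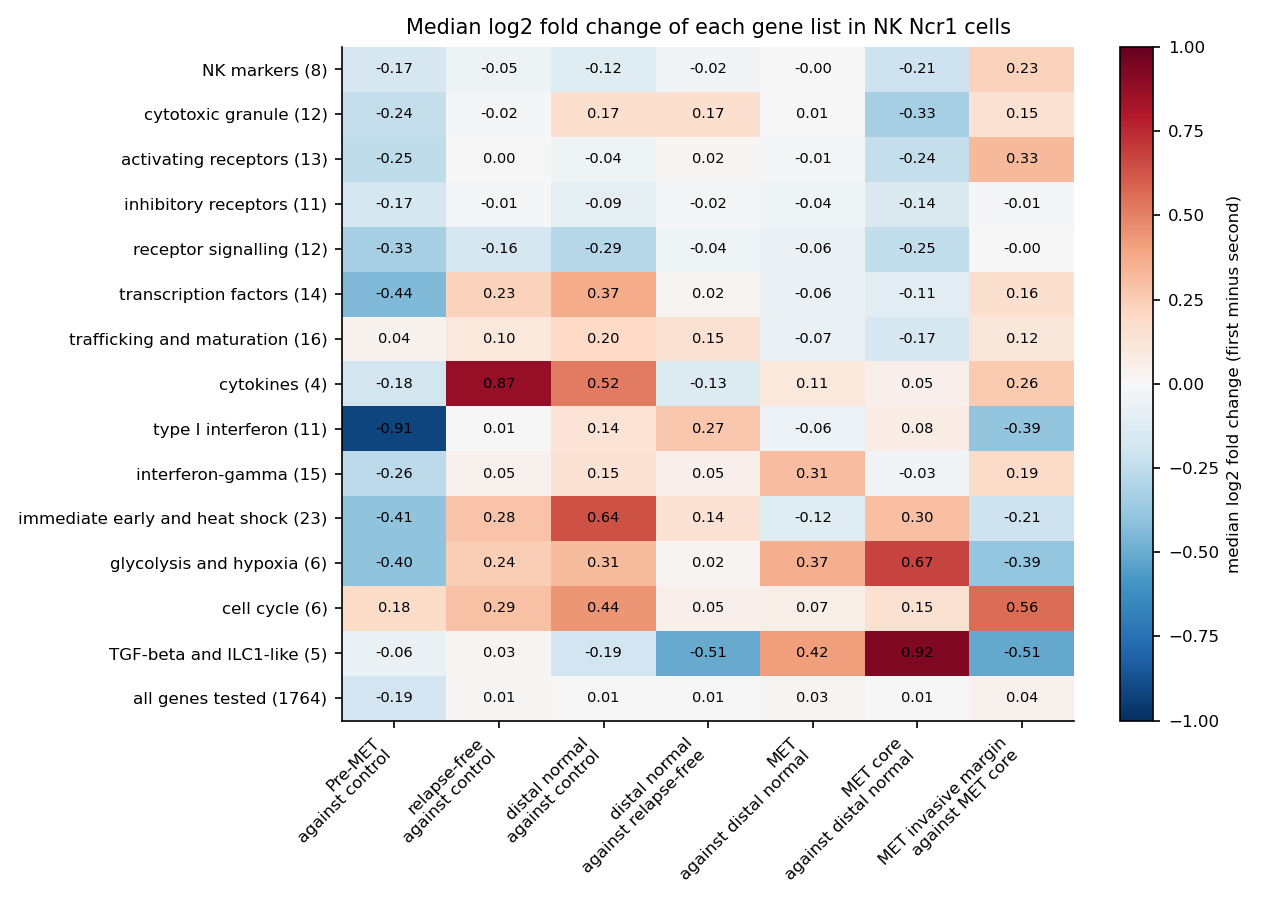
Median log2 fold change of the tested genes of each list (number of genes in parentheses) in the 7 comparisons of NK Ncr1 cells, for 14 lists and without the lists of other cell types, with the median over all 1764 tested genes in the bottom line; red is higher in the first status named. Among these 14 lists the medians furthest from 0 were those of the TGF-beta and ILC1-like list in the core against distal normal tissue (0.92), the type I interferon list in Pre-MET against control (-0.91, or -0.81 with a gene at 0 set to its bound) and the cytokine list in relapse-free against control (0.87), and none of these 3 lists held a called gene in any comparison.

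The invasive margin against the core, the comparison of NK cells at the border of metastases with those inside, gave 0 called genes (0%), 40 at an unadjusted p below 0.05, and 0 with DESeq2 (49 unadjusted). Dek, a chromatin protein of proliferating cells, stood at 205 to 1274 CPM in the margin and 0 to 438 CPM in the core (1.46 ± 0.45, adjusted p = 1.00, edgeR). Actg1, cytoplasmic gamma-actin, stood at 80.3 to 159 CPM in the margin and 106 to 2271 CPM in the core (-1.80 ± 0.59, adjusted p = 1.00). The core sums included batch SB123, which held no margin sum. In relapse-free lungs Actg1 did not overlap between lower-numbered and higher-numbered batches in NK Ncr1 cells (910 to 1131 against 138 to 320 CPM). It overlapped in CD4 Lef1 cells (314 to 411 against 43.7 to 401 CPM). With a sum left out the log2 difference lay between 1.04 and 1.73 for Dek and between -2.10 and -1.04 for Actg1. Both genes overlapped between the statuses, as did all genes tested but 1 (0.0567%). Of the 13 activating receptors 9 were above 0 (median 0.33), and of the 12 granule genes 10 were (median 0.15), beside a median of 0.04 over all genes.

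Transcripts on the lists of other cell types were found in the sums. S100a8, a neutrophil gene, had UMIs in 38.8% of NK Ncr1 cells and reached 2422 CPM in a sum, and Lyz2, a gene of monocytes and macrophages, had UMIs in 31.5% and reached 953 CPM. The summed level of 14 neutrophil genes, led by S100a8, ranged from 0 to 4037 CPM over the 40 sums (242 to 464 CPM in control, 235 to 4037 CPM in distal normal tissue). The 16 monocyte and macrophage genes, led by Lyz2, ranged from 48.6 to 1625 CPM, the 11 T-cell genes, led by Trbc1, from 126 to 1958 CPM, and the 10 B-cell genes, led by Ighm, from 0 to 757 CPM. Of the T-cell genes, Trbc1 and Trbc2 had UMIs in 21.1% and 17.1% of NK Ncr1 cells. The others were found in 0.216% (Cd4) to 4.28% (Trac), with Cd3d in 3.29%, Cd3g in 3.20%, Cd8a in 2.29% and Cd3e in 0.952%. Cd3e was scarce in CD8 Gzma T cells too, at a mean of 76.0 CPM, against 1351 CPM for Cd3g. Lists of 11 dendritic-cell, 6 erythroid, 11 epithelial and 11 stromal and endothelial genes reached at most 596, 1458, 359 and 423 CPM. Of the erythroid genes, Car2 had UMIs in 11.9% of NK Ncr1 cells and the hemoglobin gene Hba-a1 in 3.55%. S100a8 gave log2 differences of 2.16 ± 0.87 in distal normal tissue and 2.48 ± 0.88 in relapse-free lungs against control (adjusted p = 0.492 and 0.734, edgeR), in the same comparisons as Nfkbia, and its part in them was not tested. In the 17 cells of primary tumors S100a8 had 0 UMIs (exact Poisson interval 0 to 69.8 CPM).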

How the data were processed

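Per the labels and the study's methods, the authors sorted single cells into 384-well plates, made 3′ libraries, demultiplexed them (bcl2fastq 2.15.0.4 is named in the submitters' processing notes), mapped reads to mm10 and counted UMIs per gene and well, without normalization. The deposited counts (52634 gene rows, 148 plates, 56832 wells) and the deposited cell table, which gave each well's label, were joined by well; 24020 wells were annotated, all with 500 or more UMIs, and 595 of them, labeled erythrocytes, tumor or outlier, were not counted as immune cells. Cell labels and any treatment of doublets are the authors'. The aligner's setting for strand is not given in the sources used here. The members of the population, the gene lists and the tests were chosen with earlier results of these data known.

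Wells labeled NK Ncr1 were summed per mouse and status, and sums of 10 or more cells were tested with edgeR 4.0.16 (R 4.3.3; filterByExpr, TMM, glmQLFit over all 40 sums, status as the only term, Benjamini-Hochberg over 1764 genes, called at an adjusted p below 0.05); adjusted p-values of genes in the text come from this fit. The filter used the groups, so a gene could pass through the status in which it was high. CPM are UMIs of a gene per 1000000 UMIs of its sum. Replicates within a status are mice; mice with metastases gave sums to several statuses, which the fit took as separate values. Percentages of immune cells were compared by exact permutation tests or, with 10 or more values in both groups, by permutation tests (numpy 2.4.6), two-sided. Exact binomial and Poisson intervals came from scipy 1.17.1. Named were the 8 markers, the 10 largest called changes in each direction, the 3 smallest p-values in each direction where fewer than 3 genes were called, the 4 most abundant and all called genes of each of 24 lists, the 20 most abundant genes and the 10 smallest p-values of the F test; the text gives a selection of these, and Parp14, Klrg1, Cd69, Mki67, Hspa5, Ifng, Gapdh and, beside other labels, Itgam, Itga2, Ltb, Gzmc and Klra4 were named after their values were seen; 1 called gene is counted but not reported here. The test was checked on simulated counts.

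The main fit did not pair sums by mouse, and an alternative fit did so for mice with both tissues. Over 200 genes, the deviations of 2 sums of a mouse correlated at a mean of 0.202 for MET and distal normal tissue (5 mice), 0.316 for core and distal normal tissue (7 mice) and 0.568 for margin and core (4 mice). Alternatives were DESeq2 1.42.0, its size factors in edgeR, a weaker filter, 20 cells per sum, 1000 UMIs per cell, GFP+ relapse-free plates left out, the 2 statuses alone, batch and mouse terms and each sum left out. Cells above 10000 UMIs left out, batches SB112 and higher alone, leaving out single sums of groups over 5, and F tests with limma 3.58.1 (voom) and with the mouse as a block were chosen after seeing the data.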

Additional observations from a re-analysis of the deposited data

Results flagged for a closer look

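In groups of 4 to 10 samples, the percentages and the levels of the 8 markers, the called genes and the 10 leading genes of the F test were searched for a sample far from the rest of its group (Dixon's 95% limit). Of 136 groups 26 held one (19.1%), while chance gives about 1 in 20, and the genes were chosen for differences between sums.

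In relapse-free mouse 29 NK Ncr1 cells were 87.5% of NK cells (14 cells), and in the margin of mouse 33 they were 45.5%, with 5 NK Ncr1 and 6 NK Xcl1 cells, each the lowest of its group.

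Mouse 30, whose MET and core cells were sequenced in SB123, was the highest of its group in both tissues for Myl6 (1010 CPM in MET, 757 CPM in the core), the pseudogene Gm12328 (2019 and 1514 CPM) and the ribosomal gene Rps27 (631 and 615 CPM). Its core was also the highest for Gm25594 (189 CPM), Gm13341 (521 CPM) and Rpl35 (1562 CPM).

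The sums of SB124 were the highest of their groups for Jund, with 1118 CPM in distal normal mouse 34, 3504 CPM in core mouse 34 and 1752 CPM in margin mouse 31. Distal normal mouse 34, a sum of 10 cells, was also the highest for Rps27 (869.6 CPM).

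In mouse 36, sequenced in SB128, Gm12319 reached 2140 CPM in the core and 2677 CPM in the margin, Snord15a 586 CPM in the core and Mir142hg 818 CPM in distal normal tissue. Relapse-free mouse 35, also of SB128, was the highest of its group for Gm17087 (162 CPM) and Mir142hg (417 CPM); a single cell of 53711 UMIs gave 21.7% of its sum.

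Mouse 17 was the highest for Jun in distal normal tissue (195 CPM) and was the only sum with Gm25594 in distal normal tissue (78.1 CPM) and in the margin (100.1 CPM). Nfkbia reached 1804 CPM in distal normal mouse 25, and Gm13341 1033 CPM in relapse-free mouse 6. The part of batch in these values was not tested.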

How the results depend on the processing

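Of 198 alternative values of counts of called genes and of percentages, 164 were kept, a percentage by its direction and side of the threshold and a count by staying within 1.5 times its value whatever its split by direction, as were 830 of 926 values of single genes. Pre-MET against control gave 0 to 2 calls when a sum was left out (2 without Pre-MET mouse 9) and could not be fitted with cells of 1000 or more UMIs. Relapse-free against control gave 1 call with the weaker filter, with 1000 UMIs per cell, without GFP+ plates, without cells above 10000 UMIs and from the 2 statuses alone, and 0 to 2 with a sum left out (2 without relapse-free mouse 7). Distal normal against control gave 5 calls at 20 cells per sum, 5 at 1000 UMIs per cell, 23 from the 2 statuses alone, and 2 to 13 with a sum left out: 2, 3 and 2 without control mice 1, 2 and 3, and 6, 7, 4, 6 and 3 without distal normal mice 25, 27, 30, 34 and 36. Distal normal against relapse-free gave 3 calls with the weaker filter, 1 at 1000 UMIs per cell and 0 to 1 with a sum left out (1 without relapse-free mouse 35), and MET against distal normal 2 with the weaker filter. The F test called 746 of 12549 genes with the weaker filter, 62 of them among the 1764, 25 shared with the 27. Within SB112 and higher, where control and Pre-MET were missing, it called 0 of 877. With limma voom 75 were called, and 82 with the mouse as a block. On the log2 scale, Anp32a in margin against core turned from 1.40 to -0.19 at 1000 UMIs per cell and Gm25594 in distal normal against relapse-free from -3.14 to 0.061 with a batch term; the cause was not tested.

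For percentages, distal normal minus control was -7.65 points without control mouse 3 (exact permutation test, p = 0.0833; range -9.60 to -7.65 with a control left out), and core minus primary tumor 7.75 points at 1000 UMIs per cell (exact permutation test, p = 0.113) and 9.48, 9.67, 9.78 and 9.88 points without primary tumor 8, 9, 10 and 38 (exact permutation test, p = 0.0607 to 0.075).

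With the mouse as a block, MET against distal normal, core against distal normal and margin against core gave 0 calls each, with 31, 65 and 67 genes at an unadjusted p below 0.05, so pairing by mouse changed no call. Pre-MET rested on 3 sums of 9706 to 38401 UMIs, against 123752 UMIs or more in each control sum, and a count of 0 there does not show that the statuses were alike.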
